A study of Mus musculus with 6 samples.

Results

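Kinesins are motor proteins that move along microtubules or shorten them, and the CENP-named proteins build or serve the centromere, the chromosome region to which spindle microtubules attach. The genes described here are the protein-coding genes whose mouse symbol is Kif or Kifc with a number or Cenp with a letter. There were 63 such genes among 49671 genes counted. By their known roles they comprise 14 mitotic kinesins, 20 centromere proteins, 1 centriole protein that carries a CENP name, 18 transport kinesins and 10 other kinesins. RNA came from pancreata of C57BL/6J mouse embryos at 14.5 days post coitum, with 3 libraries of controls and 3 libraries of pancreata treated with 10 µM AMI-5. AMI-5 is a small molecule that inhibits protein methyltransferases, arginine methyltransferases among them. No genetic change is named for either group, and the labels say neither how long the treatment lasted nor what the controls received. The question asked of the members is whether motors and centromere proteins used in cell division moved with AMI-5 as the motors that carry cargo in interphase cells did.

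In a dividing cell, mitotic kinesins push spindle poles apart, move chromosome arms, shorten microtubule ends and build the central spindle at which the cell is cut. Centromere proteins mark the centromere with a variant histone, hold the kinetochore on that chromatin and bind spindle microtubules. Transport kinesins carry vesicles, organelles and ciliary cargo in dividing and resting cells alike. Transcripts of most mitotic kinesins and of several centromere proteins are known to accumulate late in the cell cycle and to be low in cells that have left it, and the embryonic pancreas holds both dividing progenitors and differentiating acinar and endocrine cells.

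The control libraries held 12445425 to 13321899 gene counts and the AMI-5 libraries 22894312 to 24805188, so low genes were measured more precisely with AMI-5. Separate cultures or animals are not named for the samples of a group, so each p-value rests on the spread among 3 libraries that could be technical repeats. Libraries marked A were made with an older kit version per the labels. The control titles carry A and the AMI-5 titles carry Am, and if only the former are meant, kit and treatment cannot be told apart. The tissue label was checked against its markers: the acinar and progenitor gene Cpa1 stood at 5388 to 8808 CPM (counts per 1e6 counts of a library) in the 6 libraries and the pancreatic regulator Pdx1 at 53.6 to 96.4 CPM. Some markers of several cell types were called with AMI-5. Of all tested genes 26.6% were called lower and 27.5% higher. Endocrine markers (27.3% lower, 9.09% higher), mesenchymal markers (28.6% and 28.6%) and endothelial markers (20% and 0%) lay near or below those shares. In these sets the summed levels overlapped between the groups. The 6 acinar markers took 5.32% to 7.08% of all counts in the controls and 11.7% to 14.1% with AMI-5, with 5 of 6 called higher. Of 5 leukocyte markers 4 were higher (summed level 254 to 297 CPM in controls, 451 to 476 with AMI-5), and of 4 erythroid markers tested 3 were higher and 1 lower (11.7 to 30.8 against 59.0 to 176 CPM). Of 11 endocrine markers 3 were lower and 1 higher, with Insm1 at -0.75 and Ins1 at 0.49 on the log2 scale at the ends (summed level 4695 to 5385 CPM in controls, 4965 to 6394 with AMI-5). Of 7 mesenchymal markers 2 were lower and 2 higher (7434 to 7839 against 7304 to 8375 CPM), and of 5 endothelial markers 1 was lower (415 to 504 against 337 to 479 CPM). Of 5 glial and neural crest markers 3 were lower and 1 higher (139.7 to 146 against 104 to 132 CPM). No marker was at 0 in all libraries. The part of these cell types in the results below was not tested, and in RNA of whole organs fewer cells of a type and less RNA per cell cannot be told apart.

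The mitotic kinesins and the centromere proteins were mostly lower with AMI-5, whereas most transport kinesins did not pass the test. In edgeR's quasi-likelihood test with Benjamini-Hochberg adjustment over 17519 genes, 12 of 13 tested mitotic kinesins were lower and 0 higher, against a background of 26.6% of all tested genes lower and 27.5% higher. Among centromere proteins, 13 of 20 were lower and 1 was higher. Of 17 tested transport kinesins 3 were lower, 2 higher and 12 not called. The other kinesins gave 4 lower and 0 higher among 10. Protein-coding genes alone had a background of 30.6% lower and 20.1% higher. Of all calls 50.9% were higher, a share that was 40.2% with scaling by library totals only and 38.8% after removal of GC and length trends over genes of unique sequence.

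The medians order the classes in the same way. The median log2 fold change (AMI-5 over control) was -0.55 for mitotic kinesins, -0.38 for centromere proteins and -0.35 for other kinesins. For transport kinesins it was -0.028, close to the -0.0013 of all tested genes and the -0.060 of protein-coding genes. The sign of the transport median depends on the scaling, being 0.019 with upper-quartile factors and 0.023 with TMM factors from genes of unique sequence, while the mitotic and centromere medians were negative under every scaling run. In all 13 tested mitotic kinesins each AMI-5 library lay below each control, a pattern seen in 30.6% of all tested genes, 35.2% of protein-coding genes and 34.7% of those of unique sequence. The same held for 16 of 20 centromere proteins and 6 of 17 transport kinesins, and 8 transport kinesins overlapped between the groups.

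**Figure D1:**
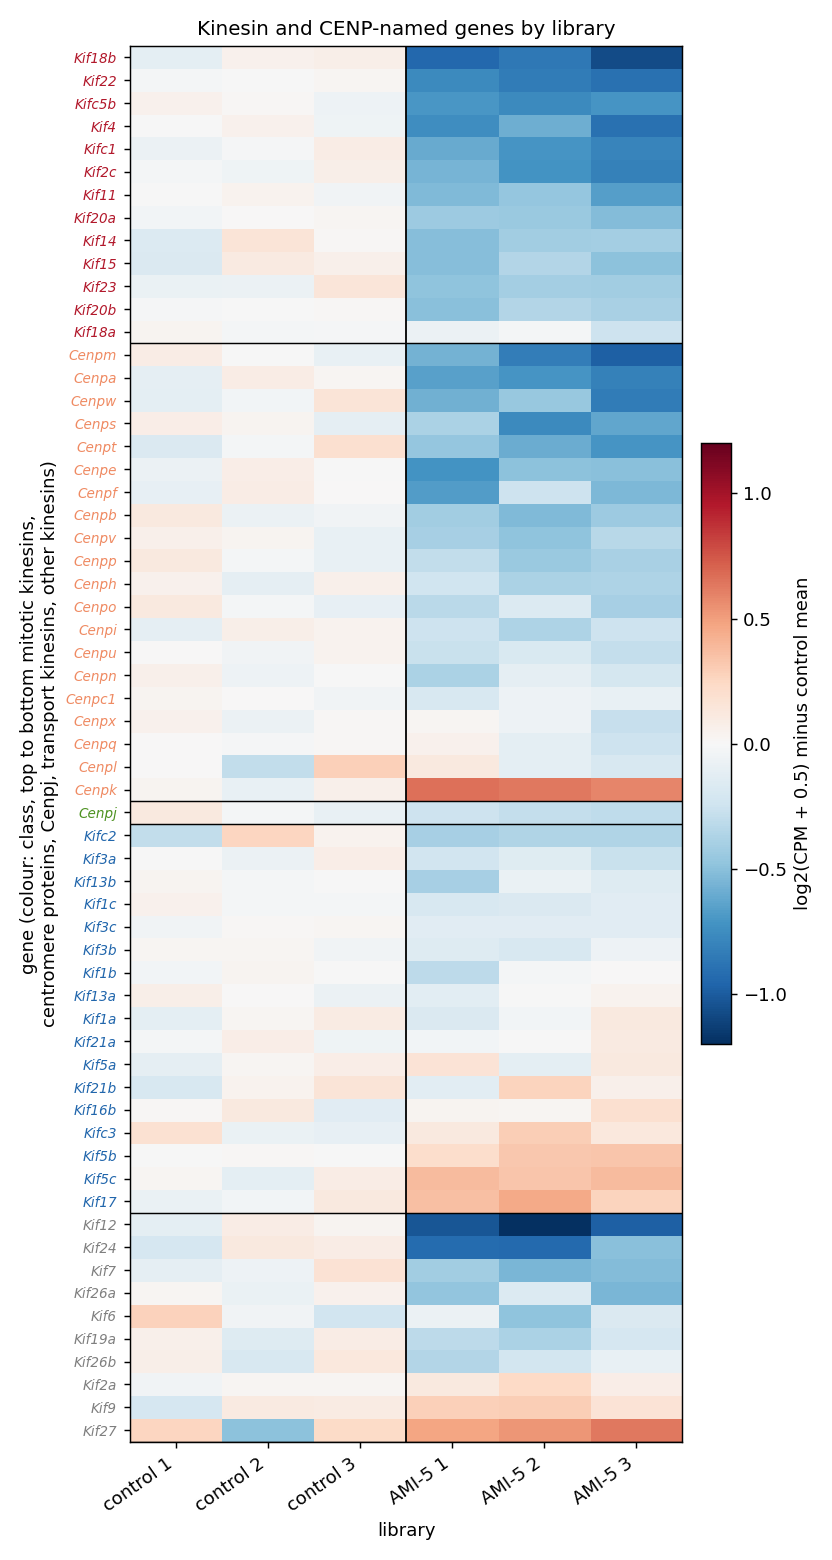
Level of each tested member in each of the 6 libraries, as log2(CPM + 0.5) minus the mean of the 3 controls, blue for lower and red for higher, with genes in rows ordered by class and by fold change. The 13 mitotic kinesins at the top are blue in the 3 AMI-5 columns, Cenpk is the red row among the centromere proteins, and the transport kinesins are pale.

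In summed level, 3 of 4 classes had every AMI-5 library below every control. The mitotic kinesins together stood at 503, 523 and 533 CPM in the controls and at 349, 357 and 333 CPM with AMI-5, so that the mean with AMI-5 was 66.6% of that in controls. The centromere proteins summed to 684 ± 10.1 CPM (SD, n = 3) in controls and 505 ± 5.72 CPM with AMI-5, which is 73.8%. The other kinesins summed to 352 ± 15.2 and 231 ± 4.98 CPM, or 65.6%, of which Kif12 alone held means of 194 and 92.4 CPM. The transport kinesins summed to 1152 ± 10.5 and 1163 ± 55.4 CPM, and there the AMI-5 libraries lay on both sides of the controls.

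A ratio taken within a library does not depend on the library's scaling. As a percent of the transport kinesin sum, the mitotic sum was 43.5, 45.1 and 46.7 in the controls and 31.7, 30.1 and 27.7 with AMI-5. The centromere sum was 60.1, 58.4 and 59.6 percent of the transport sum in the controls and 46.3, 42.8 and 41.5 percent with AMI-5. In both ratios every AMI-5 library was below every control. The 7 proliferation markers (Mki67, Top2a, Pcna, Ccnb1, Cdk1, Mcm2 and Mcm5) were all called lower, against 26.6% of all tested genes. Their summed levels were 896 to 964 CPM in controls and 601 to 661 CPM with AMI-5. The mitotic kinesin sum was 56.0 ± 0.736 percent of that marker sum in controls and 55.8 ± 1.92 percent with AMI-5 (SD, n = 3), and these groups overlap. For the centromere proteins the ratio was 73.8 ± 3.58 and 81.4 ± 4.07 percent, also overlapping.

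**Figure D2:**
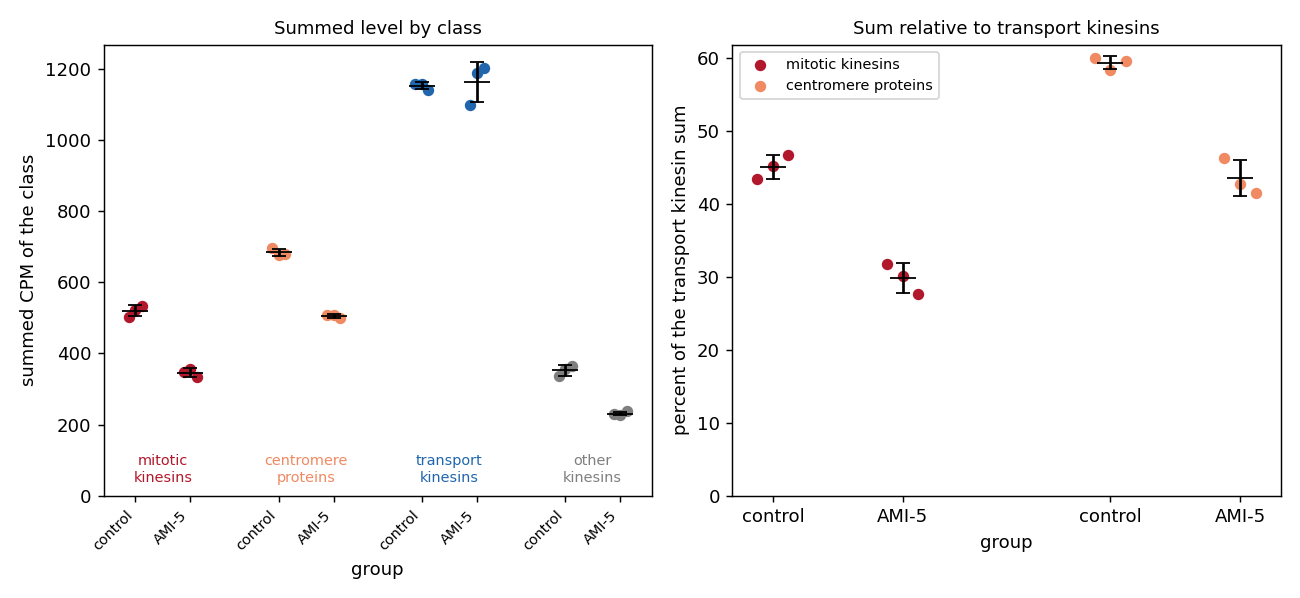
Left, summed CPM of each class in each library (points) with the mean and SD of 3 libraries (bars); right, the mitotic kinesin and centromere protein sums as a percent of the transport kinesin sum in the same library. The mitotic sum lies at 503 to 533 CPM in the controls and 333 to 357 CPM with AMI-5, and the transport sum overlaps between groups.

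Among mitotic kinesins, per kilobase of exon, Kif20a was the most abundant at 17.3 CPM per kb (mean of 6 libraries), followed by Kif11 at 10.6 and Kif22 at 9.36, and Kif18a the lowest of those tested at 1.11. Kif2b, a microtubule depolymerase, had 0 reads in every library, and with no reads it was not tested.

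The kinesins that act on chromosome arms and on chromosome alignment included the mitotic kinesins with the largest changes. Kif18b, a kinesin of the spindle's astral microtubules, stood at 27.7, 31.3 and 31.8 CPM in the controls and 15.5, 16.4 and 14.1 CPM with AMI-5. Its log2 fold change was -0.98 ± 0.092 (SE, adjusted p = 2.9e-06), and the AMI-5 libraries were at 50.6% of the control mean. Kif22, which binds chromosome arms and pushes them toward the spindle equator, was at 58.0, 58.8 and 60.0 CPM in controls and 34.4, 32.7 and 31.5 CPM with AMI-5 (-0.84 ± 0.061, adjusted p = 3.0e-07). Its libraries within a group lay close together and far from the other group. Kif4, a chromokinesin that also works at the central spindle, was at 39.4, 41.2 and 38.3 CPM against 23.4, 26.2 and 21.2 CPM (-0.75 ± 0.087, adjusted p = 1.8e-05). Kif18a, which damps chromosome movement at the spindle equator, was the exception. It stood at 11.7, 11.2 and 11.3 CPM in controls and 10.8, 11.2 and 9.55 CPM with AMI-5, a log2 fold change of -0.12 with a 95% interval of -0.35 to 0.12 (adjusted p = 0.38). The interval leaves room for no change and for a fall smaller than those of the other alignment kinesins, and after removal of GC and length trends Kif18a was called lower (-0.37 over all genes, adjusted p = 0.012, and -0.43 over genes of unique sequence, adjusted p = 0.00805).

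All 4 kinesins of spindle bipolarity were lower. Kif11, the motor that slides antiparallel microtubules and pushes the poles apart, went from 60.8, 62.5 and 59.1 CPM to 41.8, 44.1 and 38.3 CPM (-0.55 ± 0.065, adjusted p = 2.2e-05). Kif15, which helps to hold the poles apart, gave -0.47. The minus-end motor Kifc1, which crosslinks spindle microtubules, and its near copy Kifc5b gave -0.71 and -0.75. These near copies share 39.7% and 37.4% of their exonic 50-mers with other genes, so the split of reads between them is uncertain.

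The depolymerase Kif2c, which acts at centromeres to correct wrong attachments, was at 39.8, 38.8 and 42.5 CPM in controls and 27.3, 24.3 and 22.9 CPM with AMI-5 (-0.70 ± 0.082, adjusted p = 2.1e-05). The highest AMI-5 library lay well below the lowest control. All 4 kinesins of the central spindle and of cytokinesis were lower as well, by a smaller and nearly equal amount. Kif20a, which brings the chromosomal passenger complex to the central spindle, went from 74.9, 76.8 and 77.9 CPM to 56.5, 56.0 and 53.1 CPM (-0.47 ± 0.056, adjusted p = 2.3e-05). Kif14, Kif23 (the motor subunit of centralspindlin) and Kif20b gave -0.47, -0.44 and -0.42. The 12 calls in mitotic kinesins held under every alternative in which the gene was fitted, 16 to 18 each. Where exons overlap a gene on the opposite strand and the strand setting of the counting is not given, reads of both cannot be told apart. This touches Kif20a, which shares 1259 exonic bases with Cdc23 (-0.094, not called), and Kif4, which shares 832 with Pdzd11 (-0.072, not called). Over the 9 tested mitotic kinesins with little shared sequence and little overlap, 8 were lower, against 30.3% of all protein-coding genes of unique sequence.

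**Figure D3:**
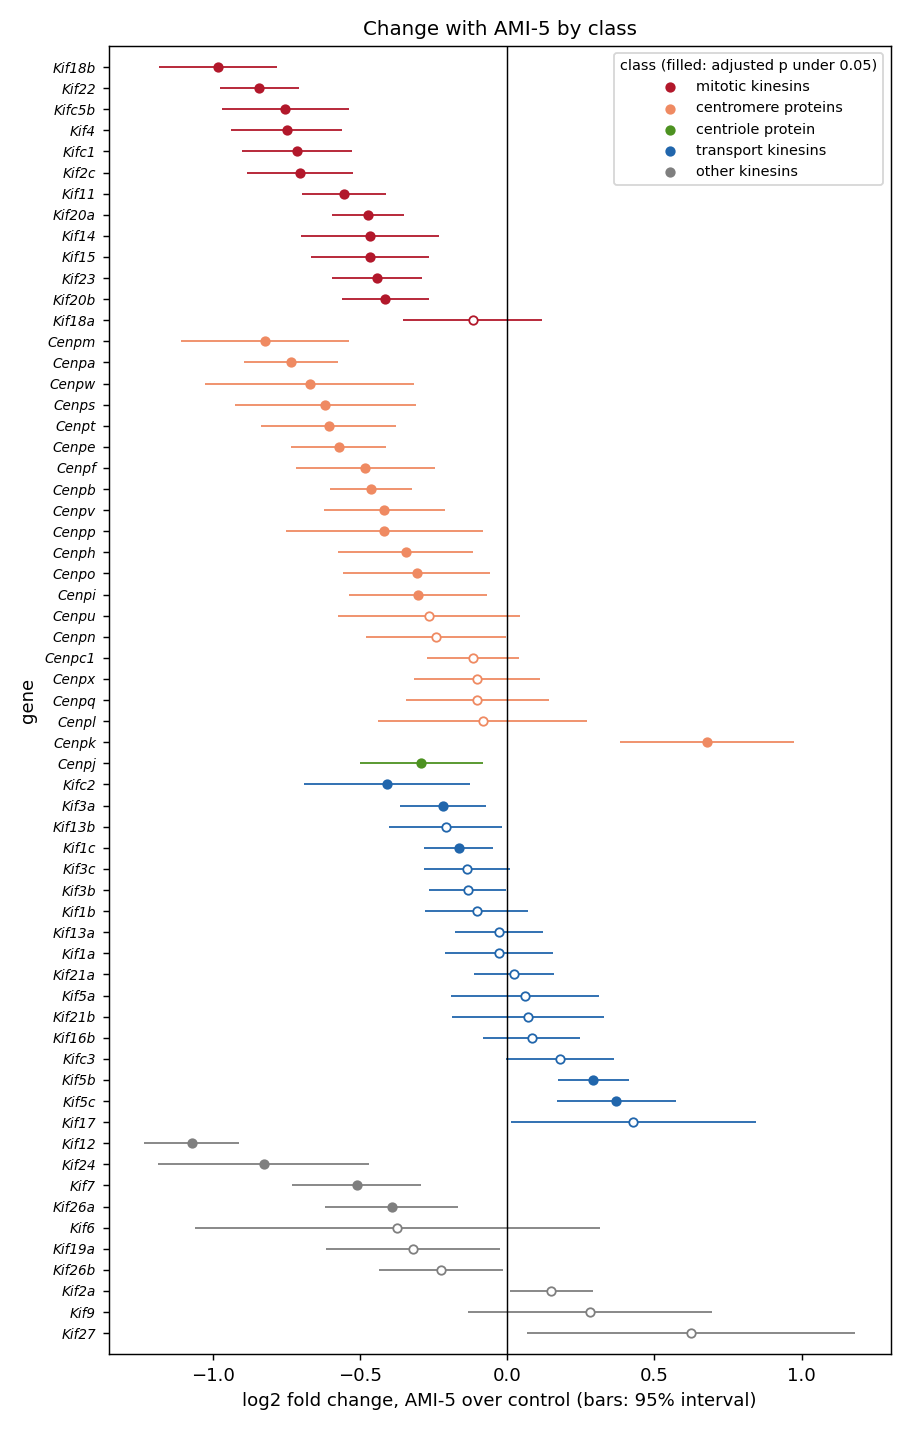
Log2 fold change of AMI-5 over control for the 61 tested members with 95% intervals, filled points for an adjusted p under 0.05 and open points for the rest, grouped by class. The intervals of 12 mitotic kinesins lie wholly below 0, Kif18a crosses 0, and the transport kinesins scatter about 0.

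The DNA around the transcription start of these genes is shown because they moved together and because a set of short sequences is known from genes of the late cell cycle. The cell cycle homology region (CHR, letters TTTGAA, with the variant form TTCGAA) is bound by complexes that hold such genes silent in resting cells and activate them before mitosis. CCAAT letters are bound by the factor NF-Y and often lie upstream of a CHR, and E2F-type letters (here TTTCGCGC, its relative TTTGGCGC, and the forms TTTCCCGC as well as TTTGCCGC) mark genes switched on earlier in the cycle. The stretches below are from the RefSeq promoter table for GRCm38.p6, 130 bases each in the direction of the gene, with the annotated start as base 101. Capitals mark CHR, CCAAT and E2F-type letters on either strand (on the reverse strand CHR reads TTCAAA, the CCAAT box reads ATTGG, and the E2F-type match of Kif18a reads GCGCCAAA). Matches of different motifs were counted separately and may share letters. The positions are chr7:127042391-127042520 (minus strand) for Kif22, chr11:102925095-102925224 (minus) for Kif18b, chr19:37376282-37376411 (plus) for Kif11, chr19:34922258-34922387 (plus) for Kif20b and chr2:109280638-109280767 (plus) for Kif18a.
Kif22: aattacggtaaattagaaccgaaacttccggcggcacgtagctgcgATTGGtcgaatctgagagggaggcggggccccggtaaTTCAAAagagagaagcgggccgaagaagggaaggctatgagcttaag
Kif18b: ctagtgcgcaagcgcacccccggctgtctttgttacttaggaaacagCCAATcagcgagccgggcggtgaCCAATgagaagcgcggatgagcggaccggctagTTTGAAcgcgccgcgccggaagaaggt
Kif11: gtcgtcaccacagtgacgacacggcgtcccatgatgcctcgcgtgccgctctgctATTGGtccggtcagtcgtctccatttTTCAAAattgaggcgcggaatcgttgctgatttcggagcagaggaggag
Kif20b: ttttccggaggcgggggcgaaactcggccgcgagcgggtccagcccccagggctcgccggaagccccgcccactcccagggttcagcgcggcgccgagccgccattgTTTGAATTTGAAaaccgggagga
Kif18a: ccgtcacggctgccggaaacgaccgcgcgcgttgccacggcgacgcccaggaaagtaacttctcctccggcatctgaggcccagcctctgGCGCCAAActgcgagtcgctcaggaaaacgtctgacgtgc
Kif22 and Kif11 carry CHR letters on the reverse strand that begin 17 and 19 bases before the start, each with CCAAT letters further upstream. In Kif18b the CHR letters begin at base 4 of the transcript, behind a pair of CCAAT matches, and Kif20b has them in tandem from bases 8 and 14 with no CCAAT match in the stretch. Kif18a, the mitotic kinesin that was not called, has E2F-type letters and neither of the others. Kif15, which was called lower, has E2F-type letters too, next to CHR letters.

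Of 13 mitotic kinesins with a promoter window (250 bases before to 50 after the start), 11 held CHR letters, or 84.6%, against 19.2% of all 32851 windows in the table and 17.6% of those of protein-coding genes. The remaining windows are those of Kif18a and the unexpressed Kif2b. The windows of Kif14, Kif2c and Kif4, which hold CHR letters, lie inside the span of the counted gene, downstream of its first base. CCAAT letters were in 9 of the 13 windows (69.2%) against 37.4% of all, and both motifs together in 8 (61.5%) against 7.52%. CHR letters within 30 bases of the start, a distance chosen after the positions had been seen, were in 9 of 13 windows (69.2%) against 3.40% of all. E2F-type letters were in 2 of 13 windows and in 2.26% of all. Such letters are a description of these windows, not evidence of a bound factor, and Kif20a has no window in the table. Of 61 windows of 54 members, 52 had their last 30 bases inside an annotated transcript of the gene.

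**Figure D4:**
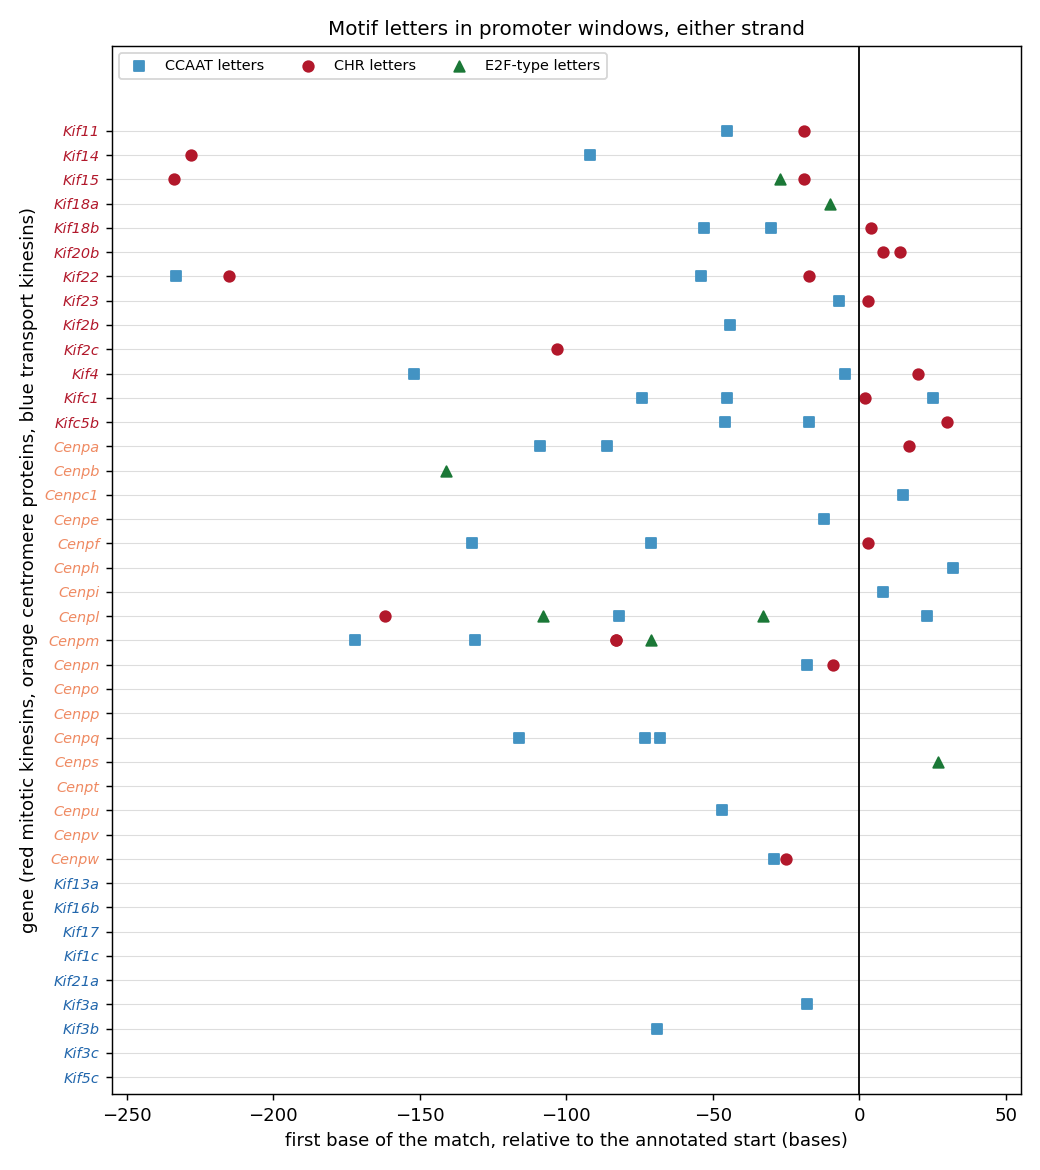
First base of each CHR (circles), CCAAT (squares) and E2F-type (triangles) match relative to the annotated start, in bases, for mitotic kinesins (red names), centromere proteins (orange) and transport kinesins (blue) that have a single promoter window. CHR matches of the mitotic kinesins gather near the start, and the transport kinesins shown have none.

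The centromere proteins varied more among themselves than the mitotic kinesins. The DNA and histone parts of the centromere were lower. Cenpa, the histone variant that marks the centromere, was at 48.5, 55.6 and 53.4 CPM in the controls and 33.1, 31.9 and 29.6 CPM with AMI-5 (-0.74 ± 0.073, adjusted p = 5.3e-06). Its groups do not overlap. Cenpb, which binds a short box in centromeric satellite DNA, was the most abundant member of the class at 48.8 CPM per kb. It went from 299, 263 and 267 CPM to 207, 191 and 204 CPM (-0.46 ± 0.064, adjusted p = 7.6e-05). The outer proteins were lower too: Cenpe, a kinesin of the kinetochore corona that carries chromosomes to the equator, went from 57.9, 64.4 and 60.6 CPM to 36.9, 43.1 and 43.0 CPM (-0.57 ± 0.074, adjusted p = 4.3e-05). Cenpf, a large protein of the corona, gave -0.48, and Cenpv, which is needed for pericentromeric chromatin, -0.42. Cenpv was not called after GC and length trends had been removed over genes of unique sequence (-0.10, adjusted p = 0.42).

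The promoters of Cenpa (chr5:30666786-30666915, plus strand) and Cenpf (chr1:189688057-189688186, minus strand) are shown for comparison with those of the mitotic kinesins above.
Cenpa: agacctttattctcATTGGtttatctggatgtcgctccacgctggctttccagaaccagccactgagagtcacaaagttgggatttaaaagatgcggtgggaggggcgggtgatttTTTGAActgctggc
Cenpf: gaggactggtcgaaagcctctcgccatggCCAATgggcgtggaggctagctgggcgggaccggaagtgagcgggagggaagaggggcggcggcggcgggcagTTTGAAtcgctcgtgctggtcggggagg
Both have CHR letters just inside the transcript and CCAAT letters upstream, as Kif18b does. The class as a whole differed from that layout. CHR letters were in 6 of its 23 windows (26.1%), within 30 bases of the start in 4 (17.4%), and CCAAT letters in 17 (73.9%). Across both mitotic classes, CHR letters were in 15 of 24 windows of the genes that fell (62.5%). They were in 2 of 12 windows of the other 9 genes, Kif2b included (16.7%). This split mixes the classes: mitotic kinesins, 12 of 13 tested lower, held CHR letters in 11 of 13 windows. Among the 13 centromere proteins that fell, CHR letters were in Cenpa, Cenpf, Cenpm and Cenpw. Among the 6 not called and the 1 that was higher, they were in Cenpl and Cenpn. Cenpk and Cenpx, among the other genes, have more than a single window each. In the same mixed split, CCAAT letters were in 62.5% of windows of genes that fell and 91.7% of the others. E2F-type letters were in 16.7% of both.

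The constitutive centromere-associated network, the inner kinetochore layer that stays on centromeric chromatin through the cell cycle, was mixed. Of its 15 members 8 were lower (53.3%), 1 higher and 6 not called. Of protein-coding genes 30.6% were lower and 20.1% higher. Cenpm fell from 14.6, 13.6 and 12.8 CPM to 9.02, 7.44 and 6.67 CPM (-0.82 ± 0.13, adjusted p = 2.2e-04). Cenpt, which reaches out to the microtubule-binding Ndc80 complex, fell from 27.4, 30.5 and 35.5 CPM to 22.3, 20.3 and 18.8 CPM (-0.61 ± 0.10, adjusted p = 4.2e-04). Cenpw and Cenps, the histone-fold partners of the Cenpt branch, gave -0.67 and -0.62. Thus 3 of the 4 histone-fold genes were lower. The fourth, Cenpx, was the most abundant of the network at 18.3 CPM per kb and stood at 21.2, 19.5 and 20.7 CPM against 20.8, 19.6 and 16.8 CPM, with overlapping groups (-0.10, 95% interval -0.32 to 0.11).

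Smaller falls were called for Cenpp (-0.42), Cenph (-0.35), Cenpo (-0.31) and Cenpi (-0.30), all with adjusted p between 0.015 and 0.038. These calls are weak. Cenpp was called in 6 of 16 alternatives, Cenpo in 5 of 16, Cenpi in 7 of 18 and Cenph in 15 of 18, and their direction never changed. Leaving out AMI-5 library 3 ended the calls of Cenpp (-0.39, adjusted p = 0.10), Cenph (-0.31, 0.065), Cenpo (-0.24, 0.15) and Cenpi (-0.31, 0.072). Leaving out AMI-5 library 2 ended those of Cenpp (-0.36, 0.11), Cenph (-0.29, 0.071) and Cenpi (-0.24, 0.14), and leaving out AMI-5 library 1 those of Cenpp (-0.45, 0.056), Cenpo (-0.28, 0.10) and Cenpi (-0.31, 0.061). Without control 1 the calls of Cenpp (-0.36, 0.11) and Cenpo (-0.25, 0.14) ended. Without control 2 those of Cenpp (-0.43, 0.064), Cenpo (-0.32, 0.069) and Cenpi (-0.27, 0.097) ended, and without control 3 that of Cenpi (-0.29, 0.079). Not called were Cenpu (-0.26), Cenpn (-0.24), Cenpc1 (-0.12), Cenpq (-0.10) and Cenpl (-0.084). Cenpc1 encodes the scaffold that joins the Cenpa nucleosome to the outer kinetochore, and its 95% interval of -0.27 to 0.040 does not reach the fall of Cenpa. After GC and length trends had been taken out over all genes, Cenpu, Cenpc1, Cenpq, Cenpl and Cenpx were called lower too, by values from -0.35 for Cenpq to -1.43 for Cenpx.

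Cenpk was the only centromere protein called higher. It stood at 4.88, 4.45 and 5.002 CPM in controls and 7.85, 7.66 and 7.43 CPM with AMI-5 (0.68 ± 0.14, adjusted p = 0.0012), with groups well apart. Its counts were low, 61 to 66 reads per control library and 172 to 176 per AMI-5 library. Exons of Cenpk have 37.1% GC, near the low end of the class (35.8% to 61.6%), and after removal of GC and length trends the call ended: -0.26 (adjusted p = 0.13) over all genes and 0.19 (adjusted p = 0.29) over genes of unique sequence. Cenpj, which despite its name encodes a protein that sets centriole length, went from 16.4 ± 1.25 to 13.4 ± 0.286 CPM (SD, n = 3; -0.29, adjusted p = 0.022). That call ended without control 1 (-0.23, adjusted p = 0.085), without AMI-5 library 2 (-0.26, 0.078) and without AMI-5 library 3 (-0.26, 0.081).

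Of 29 genes that work with these proteins, 23 were lower, 1 was higher and 5 were not called. The share lower was 79.3%, against 26.6% of all tested genes and 30.6% of protein-coding genes. All 9 partners of mitotic kinesins were lower. Incenp, the scaffold of the chromosomal passenger complex that Kif20a transports, went from 99.3, 103 and 108 CPM to 45.3, 51.3 and 49.1 CPM (-1.09 ± 0.064, adjusted p = 4.4e-08). Racgap1, the partner of Kif23 in centralspindlin, went from 82.1, 84.8 and 86.0 CPM to 49.1, 50.5 and 49.4 CPM (-0.76 ± 0.055, adjusted p = 2.5e-07). Of 13 outer kinetochore genes 9 were lower, led by Spc24 of the Ndc80 complex at -1.16 (41.7, 38.9 and 41.7 CPM against 20.7, 16.8 and 17.1 CPM), while Mis12 was at 39.8 ± 1.64 and 40.1 ± 0.967 CPM (0.011, adjusted p = 0.90). Of 7 genes for centromere assembly and cohesion 5 were lower, among them the Cenpa chaperone Hjurp (-0.56), and 1 was higher. That gene is Itgb3bp, which encodes the network protein CENP-R and is named here after its values were seen (0.74 ± 0.15, adjusted p = 0.0012). The median of the 29 partners was -0.42, and Knl1, Ska1, Ska2 and Sgo1 were, beside Mis12, the ones not called.

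Among transport kinesins the most abundant per kilobase were Kif5b at 30.5 and Kif1c at 26.8 CPM per kb, followed by Kifc3. Kif28 had 1 read in 1 control library and none elsewhere, and was not tested. The conventional kinesins, which carry mitochondria and vesicles outward along microtubules, held both rises of the class. Kif5b, the form found in all tissues, went from 202, 204 and 202 CPM to 235, 254 and 256 CPM (0.29 ± 0.055, adjusted p = 7.6e-04). Kif5c, a form known from neurons, went from 14.5, 13.1 and 15.2 CPM to 18.6, 18.0 and 18.6 CPM (0.37 ± 0.092, adjusted p = 0.0048). In both, each AMI-5 library was above each control, a pattern seen in 31.3% of all tested genes and 24.1% of protein-coding genes. Kif5a, another neuronal form, was at 11.6 ± 0.813 and 12.1 ± 1.26 CPM (SD, n = 3) and was not called (0.059, 95% interval -0.19 to 0.31). The rise of Kif5c held in 18 of 18 alternatives, and that of Kif5b was not called after trend removal (0.023 over all genes, 0.081 over genes of unique sequence). The 10 neuronal markers were at a summed 236 to 280 CPM in controls and 165 to 203 CPM with AMI-5. Of these markers 5 were called lower (50%) and 1 higher (10%), against 26.6% and 27.5% of all tested genes. Their sum fell, while Elavl4 (0.45), the marker called higher, moved as Kif5c did, and 4 were not called. The part of neuronal cells in the result of Kif5c was not tested.

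Of the other transport kinesins 3 were lower, by small amounts. Kifc2, a minus-end motor, was at 13.9, 20.6 and 17.7 CPM in controls and 12.9, 13.2 and 13.2 CPM with AMI-5 (-0.41 ± 0.13, adjusted p = 0.018). The controls spread widely and the lowest lay only just above the AMI-5 libraries. Kif3a, a subunit of the motor that moves cargo into cilia, was at 47.1, 44.9 and 50.02 CPM against 40.2, 42.8 and 39.2 CPM (-0.22 ± 0.067, adjusted p = 0.016), and its motor partner Kif3b gave -0.13 (adjusted p = 0.075). Kif1c, which moves vesicles and integrins, was at 213, 202 and 202 CPM against 181, 182 and 188 CPM (-0.17 ± 0.053, adjusted p = 0.020). None of the 3 calls held throughout. Kifc2 was not called without control 2 (-0.27, adjusted p = 0.096) or without AMI-5 library 1 (-0.38, 0.059), and it turned to 0.22 after GC and length trends had been taken out over all genes. Kif3a was not called without control 3 (-0.18, 0.065) or AMI-5 library 3 (-0.17, 0.089). Kif1c was not called without control 1 (-0.14, 0.077) or without AMI-5 library 1 (-0.14, 0.060), 2 (-0.14, 0.099) or 3 (-0.17, 0.053), and turned to 0.070 after trend removal over all genes.

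The remaining 12 tested transport kinesins were not called. Kif1a and Kif1b, which carry precursors of synaptic vesicles and mitochondria, gave -0.028 (95% interval -0.21 to 0.16) and -0.10 (-0.28 to 0.069). Kif21a gave 0.023 with the narrow interval of -0.11 to 0.16, and Kif13a -0.028 with -0.18 to 0.12. Falls as large as that of Kif11 lie outside all 4 intervals. Kifc3 was at 112, 93.4 and 92.5 CPM against 108, 122 and 108 CPM (0.18, adjusted p = 0.090), with overlapping groups, and without control 1 it was called higher (0.27, adjusted p = 0.011). Kif17, at under 4 CPM in every library, gave 0.43 (adjusted p = 0.076). Kif13b gave -0.21 (adjusted p = 0.063) and was called lower without AMI-5 library 2 (-0.25, adjusted p = 0.039). Of the class, 1 member was lower without AMI-5 library 1 and 1 without AMI-5 library 3.

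The promoter of Kif3b (chr2:153291316-153291445, plus strand) is shown as that of a transport kinesin that was not called, again with the start as base 101.
Kif3b: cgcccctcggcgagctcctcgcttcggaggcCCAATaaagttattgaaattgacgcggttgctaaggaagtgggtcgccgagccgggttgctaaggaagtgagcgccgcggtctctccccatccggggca
It has CCAAT letters and no CHR letters. Of 13 windows of transport kinesins 1 held CHR letters (7.69%, in Kif1a, 44 bases before the start), 4 held CCAAT letters (30.8%) and 0 held E2F-type letters. That Kif1a window lies inside the span of the gene, and the other Kif1a window has no CHR letters. No window is in the table for Kif5b, Kif5a, Kifc2, Kifc3, Kif13b, Kif21b or Kif28.

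Of 31 genes for kinesin light chains, cargo adaptors, dynein and dynactin, 16 were lower and 4 higher. These are 51.6% and 12.9%, against 30.6% and 20.1% of protein-coding genes. Their median was -0.32 and that of the motors -0.028, a difference that was not tested. The kinesin light chains Klc1, Klc2 and Klc4, which bind cargo to the Kif5 motors, were lower (-0.38, -0.44 and -0.36) where Kif5b and Kif5c were higher. The light chain Klc3 was not called (-0.14), and neither was the rise of Kif5b after trend removal. Among adaptors, Mapk8ip1 went from 103, 96.7 and 110.1 CPM to 73.0, 60.5 and 67.0 CPM (-0.63 ± 0.076, adjusted p = 2.8e-05). Rhot1, the mitochondrial GTPase that recruits the motors, was higher (0.30) and its relative Rhot2 lower (-0.59). In the dynein group Dynll2 went from 345, 331 and 327 CPM to 215, 213 and 211 CPM (-0.65 ± 0.052, adjusted p = 7.4e-07), and Dctn1, the large dynactin subunit, gave -0.38. Dynlt3 rose from 53.0, 51.6 and 47.4 CPM to 86.8, 80.1 and 79.3 CPM (0.69 ± 0.065, adjusted p = 3.0e-06). The dynein heavy chain Dync1h1 was not called (-0.071), with AMI-5 library 1 at 216 CPM and the other AMI-5 libraries at 323 and 313 CPM. After trend removal over genes of unique sequence 9 of 23 fitted were lower and 3 higher. Of all genes in that fit 23.9% were lower and 15.1% higher.

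The 10 other kinesins include motors of cilia, Hedgehog signalling and epithelia and the depolymerase Kif2a. Kif12, a kinesin known from kidney and bile duct epithelium, showed the largest fall of all members in this fit. It stood at 179, 206 and 198 CPM in controls and 95.2, 84.0 and 98.0 CPM with AMI-5 (-1.07 ± 0.074, adjusted p = 1.8e-07), which is 47.6% of the control mean. At 42.2 CPM per kb it was second in level to Cenpb among all members. The 7 markers of pancreatic epithelium gave 4 lower (57.1%) and 1 higher (14.3%), against 26.6% and 27.5% of all tested genes. Their summed level was 6872 to 8892 CPM in controls and 8536 to 10209 CPM with AMI-5, which overlap. Cpa1 (0.33) makes up most of that sum. Nkx6-1 (-0.86), Pdx1 (-0.65), Epcam (-0.37) and Sox9 (-0.15) were lower, and Cdh1 (-0.11) and Ptf1a (-0.087) were not called. The part of these markers' cells in the result of Kif12 was not tested.

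Kif24, which holds back cilium formation, was at 8.21, 10.3 and 10.2 CPM against 4.80, 4.77 and 6.59 CPM (-0.83 ± 0.16, adjusted p = 0.0011). Kif7, which regulates Gli factors at the tip of the cilium, was at 18.8, 19.5 and 23.0 CPM against 15.1, 13.8 and 14.1 CPM (-0.51 ± 0.10, adjusted p = 0.0011), and gave -0.060 after GC and length trends had been taken out over all genes. Kif26a, a kinesin without motor activity, was at 30.8, 28.6 and 31.5 CPM against 21.7, 27.0 and 20.6 CPM (-0.39 ± 0.10, adjusted p = 0.0070). For each of the 3 genes every AMI-5 library lay below every control, as in 30.6% of all tested genes. Kif26a turned to 0.39 (adjusted p = 0.0032) after trend removal over all genes, and to 0.044 after trend removal over genes of unique sequence. Its direction thus depends on trend removal, and it kept its sign in 16 of 18 alternatives. Kif2a, a depolymerase of interphase cells and neurons that is also known to act at spindle poles, was at 41.6, 43.4 and 43.6 CPM against 46.6, 50.6 and 45.5 CPM (0.15, adjusted p = 0.070). Placed among the mitotic kinesins it would be a further tested member not called. It shares 1229 exonic bases with Dimt1 on the opposite strand. At an unadjusted p under 0.05, Kif2a and Kif27 were higher, and limma voom called 1 of the 10 higher. Kif2a was called without AMI-5 library 3 (0.20, adjusted p = 0.049), and Kif27 without control 1 (0.78, 0.047) or control 3 (0.76, 0.049). Kif19a (-0.32, not called) was called lower without control 2 (-0.40, 0.046) but turned to 0.28 once GC and length trends were taken out over all genes, and Kif26b without control 2 (-0.32, 0.015) or AMI-5 library 3 (-0.28, 0.040). Kif6 and Kif9, at under 4 CPM, were not called.

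Base composition differs between the classes and so was examined. Median exon GC was 48.1% for mitotic kinesins, 44.0% for centromere proteins and 52.5% for transport kinesins, against 49.7% for all tested genes. After GC and length trends had been taken out over all genes, 13 of 13 mitotic kinesins and 17 of 20 centromere proteins were lower and none higher. The transport kinesins then had 2 lower and 5 higher, and their median was 0.070 against -0.62 for mitotic kinesins. Of all genes in that fit 32.3% were lower and 22.7% higher. Over genes of unique sequence, the same removal gave 9 of 9 mitotic kinesins and 12 of 16 centromere proteins lower. Among 15 transport kinesins 1 was lower and 4 higher. Of all genes in this second fit 23.9% were lower and 15.1% higher. The mitotic medians thus stayed below 0 and below the transport medians in both removals. The median of the other kinesins, -0.35 before removal, did not keep its size. It was -0.025 over all genes (of 10, 3 lower and 1 higher). Over genes of unique sequence it was 0.045 (of 6, 1 lower and 0 higher).

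**Figure D5:**
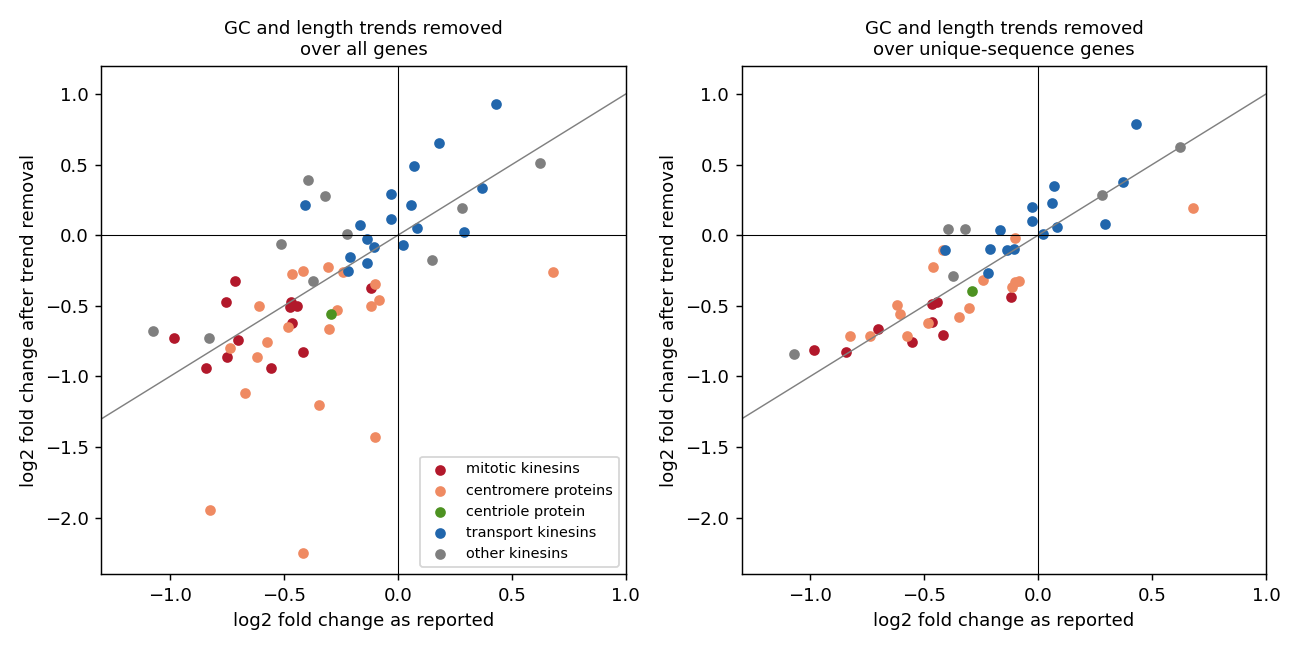
Log2 fold change of each tested member after removal of GC and length trends (vertical) against the value reported here (horizontal), over all genes on the left and over genes of unique sequence on the right, with the line of equality. All mitotic kinesins (red) stay below 0 on both sides, and Cenpk, at 0.68 on the horizontal axis, drops to -0.26 on the left and 0.19 on the right.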

How the data were processed

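The deposited values were raw read counts per gene, made by the authors with bcl2fastq 2.19.1, GSNAP 2018-05-30 and featureCounts 1.6.2 on mouse build mm10, per the submitters' processing notes. How strand and multiply mapped reads were treated in counting is not given in the sources used here. Gene length, a deposited column in bases, entered only the length trend and levels per kilobase. The 92 spike-in entries (1 read in all) were left out. Symbols, GC content and shared 50-mers came from GENCODE M21, which placed 99.81% of gene identifiers at an overlapping position; genes of unique sequence share under 5% of 50-mers.

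The test was edgeR 4.0.16 in R 4.3.3 (TMM factors, filterByExpr, robust quasi-likelihood F test, two-sided, group as the only term, Benjamini-Hochberg adjusted p under 0.05). CPM are TMM-scaled, SE is that of the log2 fold change, and edgeR's common coefficient of biological variation came to 9.65%. Within a group, pairs of libraries had chi-squares of 7.23 to 17.5 per degree of freedom, above sampling noise. Alternatives were other scalings and filters, limma 3.58.1 voom, DESeq2 1.42.0, a replicate block, removal of GC and length trends by splines (5 degrees of freedom each), genes of unique sequence alone, and each library left out. The procedure was also run on simulated counts in which few genes were changed, with random sign. That is a milder setting than these data, where 9472 genes were called, so it does not show how the scaling performs here.

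Members, classes, partner and marker lists were chosen with earlier results of these data known. All members may be named; values by library are given, per class, for up to 6 called members with the smallest p, up to 3 with the largest mean CPM per kb, and members called against their class, and from each partner list for up to 4 by p and 2 by mean CPM. Itgb3bp, Mis12, Kif18a, Kifc1, Klc1, Rhot1 and other genes outside that rule were named after their values were seen. The setting that counts only members with little shared sequence or overlap was also chosen after seeing the data.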

Additional observations from a re-analysis of the deposited data

How the results depend on the processing

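Every count of lower mitotic kinesins was 12 under the alternatives with 13 genes fitted, except 13 after removal of GC and length trends over all genes, and 8 or 9 of 9 among genes of unique sequence; all libraries left out in turn gave 12. The mitotic sum with AMI-5, 66.6% of control, was 62.5% with library totals only and 69.1% with TMM over genes of unique sequence (65.6% to 67.9% with a library left out). Calls over all genes, 9472 in all, numbered 4262 after trend removal over genes of unique sequence and 5228 in those genes alone, where fewer genes are tested, and 8435 to 9060 with a library left out. Higher centromere proteins went from 1 to 0 under both trend removals. Lower transport kinesins, 3, were 6 with library totals only and 1 with upper-quartile factors, with TMM over genes of unique sequence, with trend removal over those genes and with those genes alone; with a library left out they were 1 to 3. Higher transport kinesins, 2, were 5 after trend removal over all genes, and 4 where it was done over genes of unique sequence. Lower other kinesins, 4, were 1 after trend removal over genes of unique sequence and 2 in those genes alone and among members with little shared sequence or overlap. Higher other kinesins, 0, were 2 with RLE, upper-quartile and unique-sequence TMM factors, and 1 with no filter, limma voom and trend removal over all genes (0 to 1 with a library left out). Higher kinetochore partners went from 1 to 0 in both fits over genes of unique sequence. Lower transport partners, 16, were 9 after trend removal over genes of unique sequence; higher ones, 4, were 2 with library totals only and 2 to 5 with a library left out (2 without control 1 or control 2). Other than where fewer genes were fitted, the cause of these changes was not tested.

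Removal of GC and length trends over all genes reversed Cenpk (-0.26), Kifc2 (0.22), Kif1c (0.070), Kif1a (0.29), Kif26a (0.39) and Kif2a (-0.18), and removal over genes of unique sequence reversed Kif1c (0.036), Kif1a (0.20) and Kif26a (0.044). Among members called neither before nor after, the sign turned for Kif19a (0.28), Kif13a (0.11), Kif26b (0.010) and Kif21a (-0.067) in the former and for Kif13a (0.098) and Kif19a (0.047) in the latter. Of the members called, 12 of 12 mitotic kinesins, 8 of 14 centromere proteins, 1 of 5 transport kinesins and 2 of 4 other kinesins kept their call in every alternative in which they were fitted.

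Groups share replicate numbers. Deviations of same-numbered libraries did not correlate positively (-0.058, -0.038 and -0.048), and those of differently numbered libraries gave -0.017 to 0.063. The numbers thus gave no sign of pairing, but with 3 libraries per group such values cannot exclude it. With a replicate block 4704 genes were higher and 4482 lower. In that fit 12 mitotic kinesins and 10 centromere proteins were lower, and Cenpp, Cenpo and Cenpi were not called. Depth limits the low members most, such as Kif17, Kif6, Kif9 and Kif27, at under 4 CPM.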

Other observations

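The tracks on which the motors run were also measured. Of 20 tubulin genes, a list chosen after seeing the data, 16 were tested and 12 were lower with AMI-5 and 0 higher in edgeR's test, with a median log2 fold change of -0.38. Of all tested genes 26.6% were lower, and of protein-coding genes 30.6%. Tubb5, the main beta-tubulin of dividing cells, went from 1306, 1204 and 1360.4 CPM in controls to 1001, 953 and 960.2 CPM with AMI-5 (-0.41, adjusted p = 1.3e-04). The libraries of the groups do not overlap. Tubb3, a neuronal form, gave -0.64 and Tubb6 -0.19, and these share almost no sequence with other genes. Tubb2b (-0.95), Tubb4b (-0.73) and Tuba1a (-0.73) have 36.9%, 41.3% and 75.5% of their 50-mers in common with another gene, and reads may be split between copies. Tubg1, the gamma-tubulin of microtubule nucleation, gave -0.42, while Tubd1 (0.082), Tube1 (-0.22), Tubg2 (-0.044) and Tuba8 (0.30) were not called.

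Kif-named loci that are not protein coding had few reads. The pseudogene Kifc5c-ps, related to Kifc5b, was at 0.388, 0.729 and 0.227 CPM in controls and 1.21, 0.713 and 0.929 CPM with AMI-5 (1.06, adjusted p = 0.048), and its groups overlap. Kif4-ps and Kif22-ps were at 0 in the controls and at most 0.253 and 0.211 CPM with AMI-5.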
